A study of Mus musculus with 6 samples.

Results

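The mitochondrial genome of the mouse encodes a small set of RNAs, and the count files list all of them. The genes whose symbol starts with mt- were taken as members, which gave 37 of 41388 genes, with 13 mRNAs, 2 rRNAs and 22 tRNAs. They were compared between tumor-initiating cells (TICs), which were sorted as CD24+CD90+CD45- cells, and non-CD24+CD90+ tumor cells, the CD45- cells negative for one or both markers. Both groups came from mammary tumors of MMTV-PyMT mice of the strain FVB/N-TgN(MMTVPyVT)634Mul/J, all female. The CD24+CD90+ cells came from mice aged 12 weeks, and the age for the comparison cells is not given separately. In this strain the polyoma middle T oncogene is driven in mammary epithelium by the MMTV promoter, and both groups carry it. The series text names the comparison cells as CD24-CD90-, while the study's methods name all cells outside the CD24+CD90+ gate. There were 3 samples per group, each 1 library of 120 ng total RNA pooled from 4 cell sorts, with 12 mice in total. Single mice cannot be followed, and both groups may come from the same tumors, which the tests between groups do not take into account.

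Mitochondrial DNA is a circle with a heavy and a light strand. Both strands are transcribed as long precursors, which are cut at the tRNAs that lie between most of the larger genes. The 2 rRNAs build the mitochondrial ribosome, and every one of the 13 mRNAs encodes a subunit of the respiratory chain or of ATP synthase. mt-Nd1 to mt-Nd6 and mt-Nd4l belong to complex I, mt-Cytb to complex III, mt-Co1 to mt-Co3 to complex IV, and mt-Atp6 and mt-Atp8 to complex V. mt-Nd6 is the only mRNA read from the light-strand transcript. All other subunits of these complexes, and all factors that copy, transcribe and process mitochondrial DNA, are encoded in the nucleus. Nuclear genomes also hold old copies of mitochondrial sequence.

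The libraries held between 6781239 and 9100552 counts. TIC replicate 3 stood apart, with a Pearson r of log2 CPM (counts scaled to a common library total) across genes between 0.750 and 0.775 to the other 5 libraries, which correlated among themselves at 0.784 to 0.859, as a description in which genes are not replicates. All 10 epithelial marker genes were expressed, with summed levels of 5996 to 6368 CPM among non-CD24+CD90+ tumor cells and 3946 to 4675 CPM in TICs. Marker lists of other cells were higher in every TIC sample. The 8 fibroblast markers summed to 2791 to 3180 CPM among non-CD24+CD90+ tumor cells and to 7466 to 10826 CPM in TICs, and 6 pericyte or smooth muscle markers to 521 to 630 and 915 to 1352 CPM. Endothelial markers summed to 132 to 150 and 169 to 662 CPM, and leukocyte markers to 71.2 to 104 and 206 to 254 CPM, with Cd3e at 0 counts in every sample. Adipocyte markers summed to 238 to 343 and 392 to 1704 CPM, with Adipoq, Plin1 and Lep at 0 counts in every sample. The ranges of basal (450 to 1001 and 365 to 593 CPM), skeletal muscle (4.43 to 23.9 and 0.12 to 10.2 CPM) and erythroid markers (26.7 to 100.2 and 15.4 to 166 CPM) overlapped. The part of these cells in the mitochondrial values was not tested, and in pooled bulk samples fewer cells of a type and less RNA per cell cannot be told apart.

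Only a small group of members carried the signal. Of the 37 genes, 24 had 0 counts in every sample. These were 6 of the 13 mRNAs, namely mt-Co2, mt-Co3, mt-Atp6, mt-Atp8, mt-Nd3 and mt-Nd4l, and 18 of the 22 tRNAs. A floor of 3 counts equals 0.33 to 0.44 CPM here. Both rRNAs and the other 7 mRNAs, mt-Nd1, mt-Nd2, mt-Co1, mt-Nd4, mt-Nd5, mt-Nd6 and mt-Cytb, had at least 1665 counts in every sample. Among the tRNAs, mt-Tp, mt-Tq, mt-Tl1 and mt-Tm had counts.

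The mRNAs without counts lie side by side on the mitochondrial genome, in a stretch that has a copy in the nucleus. The authors kept only reads that aligned to a single place in the genome. In GENCODE M21 on GRCm38, 7 pseudogenes on the minus strand of chr1:24611535-24616197 follow the mitochondrial genome from chrM:6390 to chrM:11042, in the same gene order and in step to within 1 base. Aligned to the mt genes, they held 1 mismatch in 4137 bases. This nuclear stretch spans 11 mt genes whole, with 6 mRNAs and 5 tRNAs, and none of these 11 genes had a count in any sample. The 6 mRNAs are the same 6 that were at 0. The first 90 bases of mt-Co2 (chrM:7013-7102, plus strand, coding exon) and of its copy Gm28661 (chr1:24615476-24615565, minus strand, pseudogene) are shown because no base tells them apart.
mt-Co2: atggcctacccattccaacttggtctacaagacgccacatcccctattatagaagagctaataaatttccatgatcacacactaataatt
Gm28661: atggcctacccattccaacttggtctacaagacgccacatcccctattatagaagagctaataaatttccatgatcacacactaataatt

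Identity was complete over the aligned bases of mt-Co2 (681 bases), mt-Atp6 (678), mt-Co3 (783), mt-Nd3 (342) and mt-Nd4l (294). Of all 50-base windows, 100% were also found in a nuclear transcript for mt-Co2, 99.5% for mt-Atp6, 99.9% for mt-Co3, 98.0% for mt-Nd3 and 98.8% for mt-Nd4l. For mt-Atp8, which encodes a short subunit of ATP synthase and overlaps mt-Atp6 by 43 bases, no window was found in a nuclear transcript. It falls in the 233 bases of chromosome 1 between Gm10925 and Gm28661, where no transcript is annotated, and a genome sequence was not used here. A count of 0 is therefore not read as a level for any of the 6 mRNAs, in either group.

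mt-Co1 and mt-Nd4 lie across the edges of the nuclear stretch and are seen in part. mt-Co1 encodes the catalytic core of complex IV and mt-Nd4 a membrane subunit of complex I. The copy Gm29216 was identical to the last 479 bases of mt-Co1, and Gm28439 to the first 876 of the 1378 bases of mt-Nd4, which leaves 502 bases outside that copy. The bases around both edges are given 5′ to 3′ (mt-Co1 at chrM:6354-6433 and mt-Nd4 at chrM:11003-11082, both plus strand, coding exons), with capitals for the part that the chromosome 1 copy shares.
mt-Co1: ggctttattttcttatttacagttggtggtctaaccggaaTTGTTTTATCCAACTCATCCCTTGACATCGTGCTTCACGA
mt-Nd4: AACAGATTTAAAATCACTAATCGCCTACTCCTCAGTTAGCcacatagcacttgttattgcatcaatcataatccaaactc

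A second, more diverged copy of mt-Co1, Gm13340 on chromosome 2, matched over all 1545 bases at 97.6% identity, so that 51.1% of the 50-base windows of mt-Co1 were shared in all. The shares were 62.2% for mt-Nd4, 8.19% for mt-Nd2, 7.61% for mt-Nd5, 1.04% for mt-Rnr2 and 0 for mt-Rnr1, mt-Nd1, mt-Nd6 and mt-Cytb. Few reads were placed on the copies themselves. The 7 pseudogenes on chromosome 1 held 545 counts over all 6 samples. Of these, Gm29216, the copy of mt-Co1, held 66, 23 and 97 counts among non-CD24+CD90+ tumor cells replicates 1 to 3 and 23, 15 and 69 in TIC replicates 1 to 3. Gm13341, a copy of mt-Co2 on chromosome 2 with 97.6% identity, held 11, 20 and 17 counts among non-CD24+CD90+ tumor cells and 23, 27 and 24 in TICs. Gm28438, the copy of mt-Nd3, held 10, 2 and 13 counts among non-CD24+CD90+ tumor cells and 34, 26 and 34 in TICs.

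**Figure D1:**
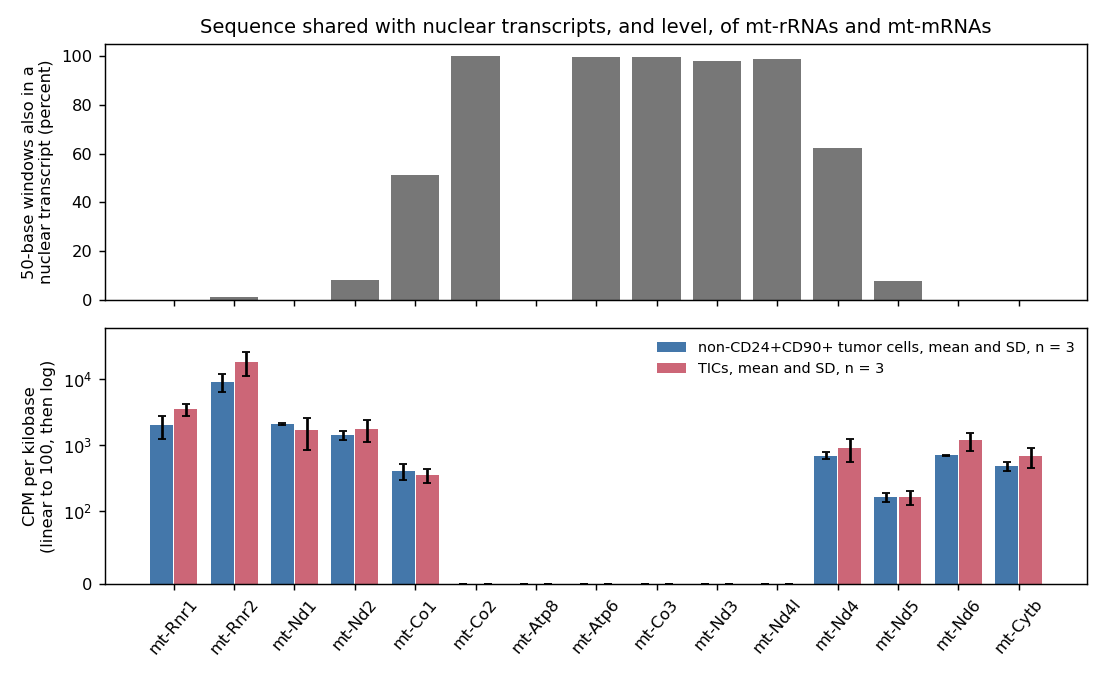
Upper panel, percent of the 50-base windows of each mt-rRNA and mt-mRNA (x axis, gene order) that also occur in a nuclear transcript. Lower panel, CPM per kilobase of gene, bars for the mean and lines for the SD of 3 samples per group, on an axis that is linear to 100 and logarithmic above. The 6 mRNAs from mt-Co2 to mt-Nd4l are at 0 in both groups, and apart from mt-Atp8 they share 98.0% to 100% of their windows.

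The share of each library that fell on mt genes was higher in all TIC samples. It was 2.91%, 1.93% and 1.95% in non-CD24+CD90+ tumor cells replicates 1 to 3 and 3.21%, 3.51% and 5.01% in TIC replicates 1 to 3. The means were 2.26% ± 0.56 and 3.91% ± 0.96 (SD, n = 3), a 1.73-fold ratio. The groups did not overlap, but replicate 1 of non-CD24+CD90+ tumor cells lay close to TIC replicate 1 and well above its own group. The exact two-sided permutation test gave p = 0.1, the smallest value that 3 samples against 3 allow, so that this design cannot pass 0.05. The 95% Wilson intervals of these shares were at most 0.015 percentage points wide to either side, which covers counting error only. Without TIC replicate 3 the TIC mean was 3.36% ± 0.22 and the ratio 1.49-fold (exact permutation test, p = 0.2). For mt-mRNAs as a percentage of protein-coding counts, the difference was 0.10 percentage points (exact permutation test, p = 0.6).

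This difference lay with the rRNAs. The study took RNA with an integrity number higher than 6, and its methods name no selection of polyadenylated RNA or removal of rRNA. The part of RNA integrity and RNA selection in the mt-rRNA shares was not tested. mt-rRNAs took 2.24%, 1.34% and 1.33% of the counts among non-CD24+CD90+ tumor cells and 2.34%, 2.73% and 4.59% in TICs. The means were 1.64% ± 0.52 and 3.22% ± 1.20 (SD, n = 3; exact permutation test, p = 0.1), without overlap. Without TIC replicate 3 the mean of the mt-rRNAs in TICs was 2.54% ± 0.28, and the ratio fell from 1.97 to 1.55 (exact permutation test, p = 0.2). mt-mRNAs took 0.67%, 0.58% and 0.62% in non-CD24+CD90+ tumor cells and 0.87%, 0.78% and 0.42% in TICs. TIC replicates 1 and 2 were thus above, and TIC replicate 3 below, all non-CD24+CD90+ tumor cells (means 0.62% ± 0.04 and 0.69% ± 0.24, exact permutation test, p = 0.8). Without TIC replicate 3 the mean of the mt-mRNAs in TICs was 0.82% ± 0.06, and the groups did not overlap (exact permutation test, p = 0.1).

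TIC replicate 3 was the library with the most mt-rRNA and the least mt-mRNA. It held 11.04 mt-rRNA counts per mt-mRNA count. The other libraries held 3.36, 2.29 and 2.14 in non-CD24+CD90+ tumor cells and 2.698 and 3.51 in TIC replicates 1 and 2, and the groups overlapped. As a percentage of all mt counts, mt-rRNAs made up 77.1%, 69.6% and 68.1% in non-CD24+CD90+ tumor cells and 72.9%, 77.8% and 91.7% in TICs, with an exact permutation p of 0.2 (0.27 when adjusted over the 4 composition percentages tested).

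**Figure D2:**
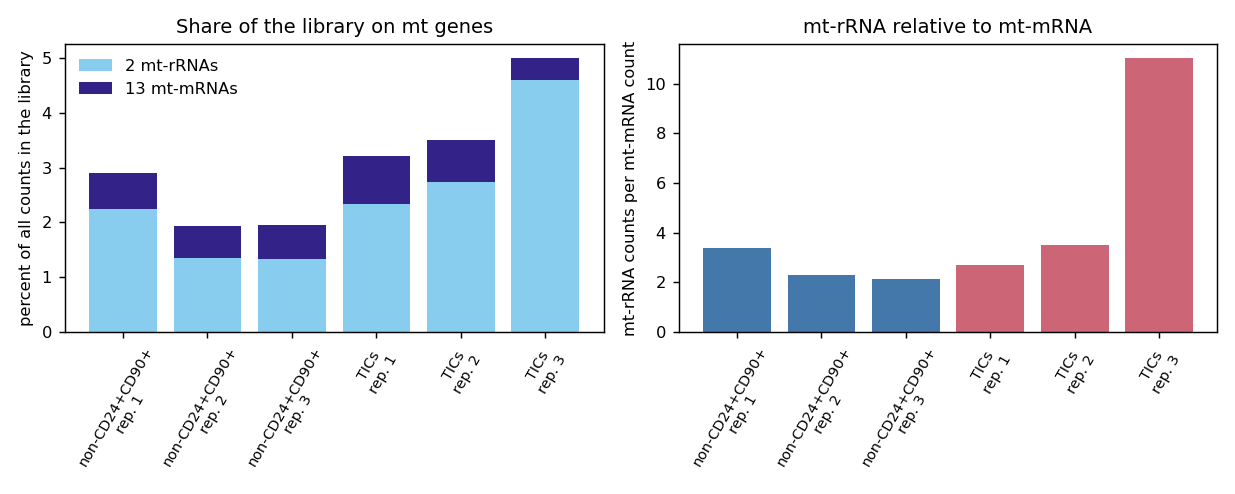
Left, percent of all counts in each of the 6 libraries on mt-rRNAs (light) and mt-mRNAs (dark), stacked from 0. Right, mt-rRNA counts per mt-mRNA count in the same libraries. The 3 TIC libraries have the tallest stacks, up to 5.01% in replicate 3, where the mRNA part is the smallest and the ratio reaches 11.04.

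Abundant noncoding RNAs were set beside these shares. Malat1 and Neat1 are RNAs of the nucleus, and Gm42418 was not classed as one here. The percentage of counts on Malat1, a long noncoding RNA of the nucleus, was 1.38%, 0.84% and 0.66% in non-CD24+CD90+ tumor cells and 1.77%, 3.24% and 4.10% in TICs. TIC replicate 3 was thus highest for Malat1 as for mt-rRNA, and replicate 1 was the highest of the non-CD24+CD90+ tumor cells for both. Malat1 passed edgeR's exactTest (log2 fold change 1.72 ± 0.38 SE, adjusted p = 0.0033). Neat1, another nuclear RNA, had 0.11%, 0.12% and 0.08% in non-CD24+CD90+ tumor cells and 0.08%, 0.09% and 0.10% in TICs (log2 fold change −0.10, adjusted p = 1). Gm42418, an abundant noncoding RNA, had 4.31%, 2.34% and 2.75% in non-CD24+CD90+ tumor cells and 4.49%, 3.16% and 4.13% in TICs. Its order differed from that of Malat1, with TIC replicate 1 highest and non-CD24+CD90+ replicate 1 above TIC replicates 2 and 3. It was not called (log2 fold change 0.38 ± 0.32 SE, exactTest, adjusted p = 0.98). The part of nuclear RNA content in the mt shares was not tested. The summed level of 13 immediate early genes, which respond to stress during cell isolation, was 5229 to 7891 CPM among non-CD24+CD90+ tumor cells and 3599 to 6141 CPM in TICs.

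Each gene was then tested between the groups with edgeR's exactTest, fitted to all 12192 genes that had more than 1 CPM in at least 3 samples, at a Benjamini-Hochberg adjusted p below 0.1. Of the 37 members 10 passed this filter, the 2 rRNAs, the 7 mRNAs with counts and mt-Tp. None of the 10 was called. Over all genes tested, 1.55% were called, 1.36% higher and 0.189% lower in TICs. At an unadjusted p below 0.05, 3 of the 10 members (mt-Rnr1, mt-Rnr2 and mt-Nd6, all with a higher TIC mean) stood against 7.85% of all genes, 4.74% with a higher TIC mean. edgeR's quasi-likelihood test also called 0 members, with 3 below an unadjusted p of 0.05, beside 0.41% of all genes called. DESeq2 called 2, mt-Rnr1 and mt-Nd6, beside 2.58% of all genes. RLE factors, library size alone, no filter and factors from genes other than mt genes left 0 members called, where 1.63%, 1.25%, 0.652% and 1.55% of all genes were called. The log2 fold change was positive for 8 of the 10 members with a median of 0.47, against a median of −0.01 for all genes tested. Leaving out 1 sample called 0 to 2 members. The share of all genes called was then 0.705%, 0.673% and 0.558% without non-CD24+CD90+ replicates 1, 2 and 3, and 2.58%, 0.861% and 1.03% without TIC replicates 1, 2 and 3. Levels in the following are TMM-normalized CPM, and the error of a log2 fold change is its standard error (SE).

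mt-Rnr2 (ENSMUSG00000064339, chrM:1094-2675, plus strand), the large-subunit rRNA, was second only to Gm42418 among all genes by mean share of the library. Its levels were 20023, 11325 and 11522 CPM among non-CD24+CD90+ tumor cells and 20796, 24087 and 44857 CPM in TICs. The lowest TIC sample exceeded the highest of the other group by a small margin only, and TIC replicate 3 was far above the rest. The test gave a log2 fold change of 1.07 ± 0.35 (exactTest, adjusted p = 0.15), and 0.67 without TIC replicate 3. Without TIC replicate 1 it was called, with a log2 fold change of 1.28 (adjusted p = 0.032), and likewise when non-CD24+CD90+ replicate 1 was left out (1.40, adjusted p = 0.086).

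mt-Rnr1 (ENSMUSG00000064337, chrM:70-1024, plus strand), the small-subunit rRNA, had 2817, 1531 and 1360 CPM among non-CD24+CD90+ tumor cells and 2611, 3448 and 4311 CPM in TICs. The groups overlapped in 1 sample each, since replicate 1 of non-CD24+CD90+ tumor cells was above TIC replicate 1. The test gave a log2 fold change of 0.86 ± 0.34 (exactTest, adjusted p = 0.32). It passed in DESeq2 (adjusted p = 0.028), and in exactTest only when non-CD24+CD90+ replicate 1 was left out (1.27, adjusted p = 0.070). Counts of mt-Rnr2 per count of mt-Rnr1 were 7.11, 7.40 and 8.47 in non-CD24+CD90+ tumor cells and 7.97, 6.99 and 10.4 in TICs.

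mt-Nd6 (ENSMUSG00000064368, chrM:13552-14070, minus strand), the complex I subunit of the light strand, was the mRNA that separated the groups. It had 366, 341 and 354 CPM among non-CD24+CD90+ tumor cells and 823, 559 and 490 CPM in TICs, means of 354 ± 13 and 624 ± 176 (SD, n = 3). The non-CD24+CD90+ tumor cells were close together, and every TIC sample was above them. The test gave a log2 fold change of 0.82 ± 0.30 (exactTest, adjusted p = 0.23). DESeq2 called it (0.84, adjusted p = 0.016), and so did exactTest without TIC replicate 3 (0.99, adjusted p = 0.068) and with genes kept at 10 or more counts per sample (0.86, adjusted p = 0.085), where 3.15% of all genes were called and mt-Rnr2 passed as well. Together with mt-Rnr2, it made 2 of 10 members whose groups did not overlap, beside 15.2% of all genes tested, 7.69% higher and 7.55% lower in TICs.

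mt-Nd6 and mt-Nd5, which encodes a large complex I subunit, run towards each other and share their last 14 bases on opposite strands. The ends of both transcripts (chrM:13516-13565 on the plus strand and chrM:13552-13601 on the minus strand) are shown 5′ to 3′, with the overlap in capitals.
mt-Nd5: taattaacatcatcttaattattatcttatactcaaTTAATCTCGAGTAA
mt-Nd6: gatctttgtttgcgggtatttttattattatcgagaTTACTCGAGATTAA

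The sources used here do not state whether reads were counted by strand. Without strand, heavy-strand RNA across this region and mt-Nd6 cannot be told apart. mt-Nd5 itself (ENSMUSG00000064367, chrM:11742-13565, plus strand) had 330, 295 and 238 CPM among non-CD24+CD90+ tumor cells and 374, 263 and 266 CPM in TICs, which overlapped (log2 fold change 0.06 ± 0.30, exactTest, adjusted p = 1). The ratio of mt-Nd6 to mt-Nd5 counts was 1.11, 1.15 and 1.49 in non-CD24+CD90+ tumor cells and 2.20, 2.13 and 1.85 in TICs, without overlap (exact permutation test, p = 0.1). It was 1 of 5 ratios between members that were computed, and 2 of the 5 did not overlap.

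None of the other heavy-strand mRNAs of complex I was called. mt-Nd1 (ENSMUSG00000064341, chrM:2751-3707) had 1972, 2009 and 1960 CPM among non-CD24+CD90+ tumor cells and 2512, 1597 and 880 CPM in TICs. The former lay within a narrow band, and the TICs spread to both sides of it (log2 fold change −0.25 ± 0.35, exactTest, adjusted p = 1). mt-Nd2 (ENSMUSG00000064345, chrM:3914-4951) had 1609, 1139 and 1523 CPM among non-CD24+CD90+ tumor cells and 1979, 2370 and 1154 CPM in TICs. mt-Nd4 (ENSMUSG00000064363, chrM:10167-11544) had 1036, 781 and 992 CPM and 1407, 1582 and 746 CPM. In both genes TIC replicates 1 and 2 were above all non-CD24+CD90+ tumor cells and TIC replicate 3 was not (log2 fold changes 0.37 and 0.41, adjusted p = 0.98 and 0.96 from exactTest). The ratio of mt-Nd1 to mt-Nd2 counts overlapped, at 1.23, 1.76 and 1.29 in non-CD24+CD90+ tumor cells and 1.27, 0.67 and 0.76 in TICs (exact permutation test, p = 0.2).

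mt-Cytb (ENSMUSG00000064370, chrM:14145-15288), the cytochrome b of complex III, had 663, 469 and 491 CPM among non-CD24+CD90+ tumor cells and 946, 910 and 500 CPM in TICs. TIC replicate 3 fell among the non-CD24+CD90+ tumor cells, and the fitted log2 fold change was 0.54 ± 0.32 (exactTest, adjusted p = 0.80). mt-Co1 (ENSMUSG00000064351, chrM:5328-6872) had 812, 570 and 458 CPM among non-CD24+CD90+ tumor cells and 636, 571 and 418 CPM in TICs, and the groups overlapped (log2 fold change −0.18 ± 0.31, exactTest, adjusted p = 1). It rests on a part of the gene only.

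**Figure D3:**
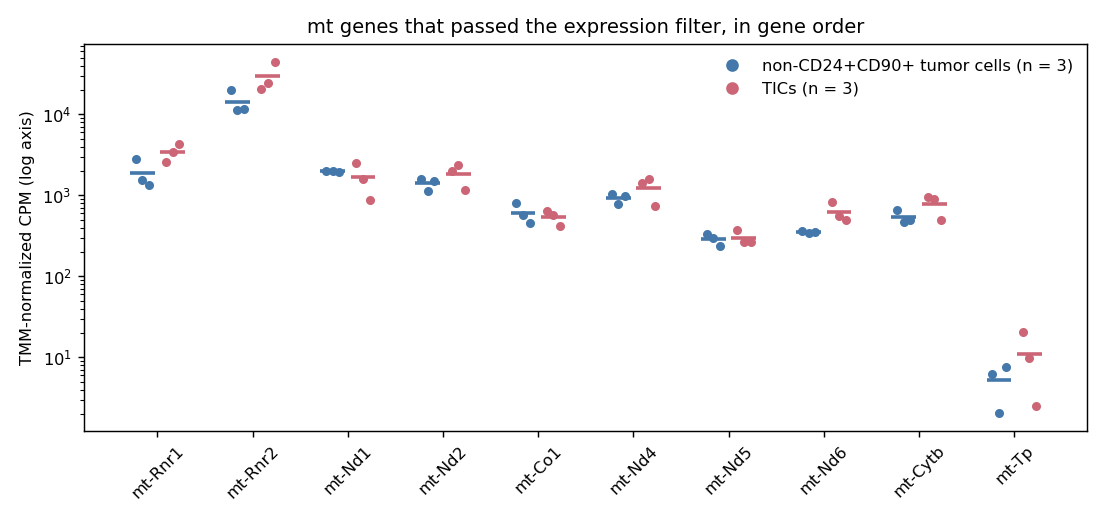
TMM-normalized CPM (log axis) of the 10 mt genes that passed the filter, in gene order, with 1 point per sample and a bar at the mean of 3 samples. Non-CD24+CD90+ tumor cells and TICs do not overlap for mt-Rnr2 and mt-Nd6, and mt-Nd1 and mt-Nd6 show the tightest non-CD24+CD90+ tumor cells.

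**Figure D4:**
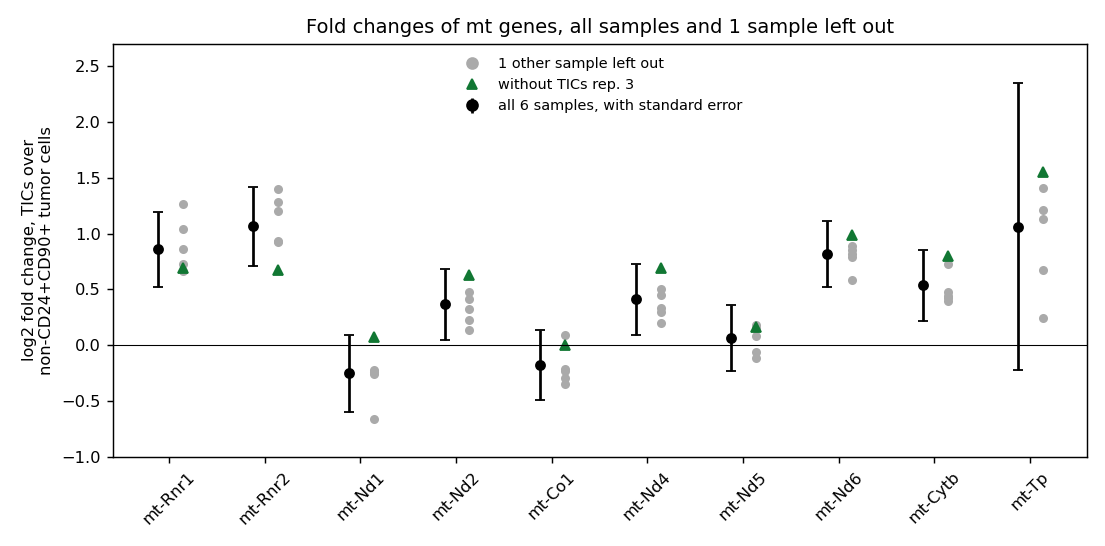
Log2 fold change of TICs over non-CD24+CD90+ tumor cells for the same 10 genes, with all 6 samples (black, bar for the standard error) and with 1 sample left out (grey, green triangle without TIC replicate 3). Without TIC replicate 3 the value for mt-Rnr2 falls from 1.07 to 0.67, while those of the mRNAs are higher, with mt-Nd1 moving from −0.25 to 0.07.

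Shares within the mt-mRNA counts do not depend on the depth or scaling of the library, and they set the genes against each other within each sample. mt-Nd1 made up 29.1%, 35.8% and 32.6% of the mt-mRNA counts among non-CD24+CD90+ tumor cells and 28.9%, 20.3% and 19.7% in TICs. All TICs were below, TIC replicate 1 by a narrow margin. mt-Nd6 made up 5.40%, 6.08% and 5.89% in non-CD24+CD90+ tumor cells and 9.49%, 7.13% and 11.01% in TICs, and every TIC sample was above. mt-Cytb made up 9.77%, 8.36% and 8.16% in non-CD24+CD90+ tumor cells and 10.9%, 11.6% and 11.2% in TICs, again with every TIC sample above.

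For these 3 of 7 mRNAs the groups did not overlap, and the exact permutation p was 0.1 for each, the smallest possible. By TMM-normalized CPM, which is a different measure, the groups did not overlap for 15.2% of all genes tested. The 3 shares are given as values and are not read as a result about the composition. Shares that sum to a fixed total are not independent, since a lower share of mt-Nd1, the most abundant mRNA of the non-CD24+CD90+ tumor cells by count, raises the others. TIC replicate 3 did not stand apart in the share of mt-Cytb. The other 4 mRNAs overlapped, with mt-Nd2 at 20.3% to 25.3% in non-CD24+CD90+ tumor cells and 22.8% to 30.2% in TICs, mt-Nd4 at 13.9% to 16.5% and 16.2% to 20.1%, mt-Co1 at 7.60% to 11.96% and 7.28% to 9.38%, and mt-Nd5 at 3.96% to 5.27% and 3.34% to 5.97%. Counts of mt-Cytb per count of mt-Co1 were 0.82, 0.82 and 1.07 in non-CD24+CD90+ tumor cells and 1.49, 1.59 and 1.20 in TICs, the other ratio that did not overlap (exact permutation test, p = 0.1).

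Summed by complex, the detected complex I mRNAs made up 81.3% ± 3.0 of the mt-mRNA counts among non-CD24+CD90+ tumor cells and 80.8% ± 1.2 in TICs (SD, n = 3; exact permutation test, p = 0.9). Complex III, which is mt-Cytb alone, was 8.76% ± 0.88 and 11.2% ± 0.3, and complex IV, here mt-Co1 alone, was 9.91% ± 2.19 and 7.997% ± 1.200 (exact permutation test, p = 0.1 and 0.2, both 0.27 when adjusted over the 4 percentages). The complex IV difference was −1.91 percentage points, and −0.89 when non-CD24+CD90+ replicate 1 was left out (exact permutation test, p = 0.5). Complex V had no counts. These sums describe what uniquely mapped reads could show and not the complexes.

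**Figure D5:**
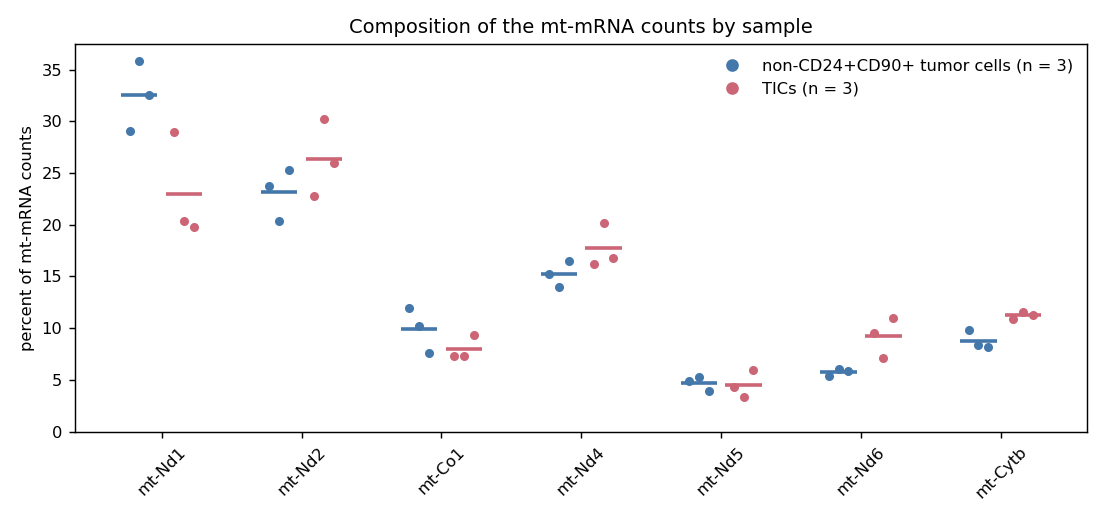
Percent of the mt-mRNA counts of a sample on each of the 7 mt-mRNAs with counts, in gene order, with 1 point per sample and a bar at the mean of 3 samples. TICs lie below non-CD24+CD90+ tumor cells for mt-Nd1 and above them for mt-Nd6 and mt-Cytb.

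Levels of different genes were compared per kilobase. In non-CD24+CD90+ tumor cells, the mean CPM per kilobase of gene was 9127 for mt-Rnr2 and 2011 for mt-Rnr1, and among mRNAs 2107 for mt-Nd1, 1392 for mt-Nd2, 694 for mt-Nd6, 690 for mt-Nd4, 479 for mt-Cytb, 402 for mt-Co1 and 160 for mt-Nd5. In the order of levels, mt-Nd1 and mt-Rnr1 did not differ beyond their SD of 84.5 and 770, mt-Nd6 and mt-Nd4 did not differ beyond their SD of 9.4 and 85.7, nor did mt-Cytb and mt-Co1 with 77.5 and 106. The whole length misstates the genes that share sequence with the nucleus. Per kilobase of 50-base windows that no nuclear transcript holds, mt-Nd4 reached 1895 ± 235 CPM, between mt-Nd1 (2221 ± 89) and mt-Nd2 (1592 ± 245), and mt-Co1 849 ± 224, next to mt-Nd6 (766 ± 10). Of the 100-base windows of mt-Co1, 30.8% were shared. It had 731 unshared windows of 50 bases and 1000 of 100 bases, and mt-Nd6 had 470 and 420. The order of mt-Co1 and mt-Nd6 in non-CD24+CD90+ tumor cells therefore depends on the window length. In TICs the same measure was 2439 ± 925 for mt-Nd4, 1806 ± 932 for mt-Nd1, 1986 ± 722 for mt-Nd2, 727 ± 174 for mt-Co1 and 1302 ± 402 for mt-Nd6 (SD, n = 3). Among the 7 mRNAs with counts, complex I mRNAs held both the highest mean and the lowest, with mt-Nd5 at 178 ± 25 in non-CD24+CD90+ tumor cells and 179 ± 42 in TICs.

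The tRNAs, of 59 to 75 bases, had few or no counts, which are not read as the amount of tRNA in the cells. The part of their short length in this was not tested. Of the 17 that lie outside the stretch copied on chromosome 1, 4 had counts. mt-Tp, the proline tRNA next to the noncoding control region, had 43, 18 and 53 counts among non-CD24+CD90+ tumor cells and 189, 85 and 19 in TICs. This was 2.04 to 7.58 CPM and 2.51 to 20.8 CPM, with overlap (log2 fold change 1.06 ± 1.29, exactTest, adjusted p = 1). mt-Tq, the glutamine tRNA, had 53 counts in TIC replicate 2 and 0 in the other 5 samples. mt-Tl1, a leucine tRNA, had 4, 0 and 9 counts among non-CD24+CD90+ tumor cells and 0, 0 and 2 in TICs, and mt-Tm, the methionine tRNA, had 1, 0 and 0 and 9, 1 and 0. Their sequences are given 5′ to 3′ as transcribed, since both tRNAs with more than 10 counts in a sample, mt-Tp (chrM:15356-15422) and mt-Tq (chrM:3772-3842), are on the minus strand, and mt-Tl1 (chrM:2676-2750) and mt-Tm (chrM:3845-3913) on the plus strand.
mt-Tp: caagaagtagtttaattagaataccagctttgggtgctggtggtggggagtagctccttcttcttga
mt-Tq: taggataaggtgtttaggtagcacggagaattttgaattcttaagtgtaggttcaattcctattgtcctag
mt-Tl1: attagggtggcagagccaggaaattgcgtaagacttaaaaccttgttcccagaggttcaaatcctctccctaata
mt-Tm: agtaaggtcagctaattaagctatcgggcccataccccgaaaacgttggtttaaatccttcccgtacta

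The nuclear genes that serve the mitochondrial genome were examined in 8 lists of 146 genes. Of these 135 were tested, 0 were called by exactTest in either direction, and 59 had a positive log2 fold change, with a median of −0.04. Of all genes tested, 1.55% were called. At an unadjusted p below 0.05 there were 2 genes higher and 4 lower, and 7.85% of all genes tested passed that level. By TMM-normalized CPM the groups did not overlap for 21 of the 135 genes, beside 15.2% of all genes tested. DESeq2 called 2 of the listed genes, Atp5l and Ptcd3, beside 2.58% of all genes. Among 19 tested genes for transcription and replication of mitochondrial DNA the median log2 fold change was −0.06. Polrmt, the mitochondrial RNA polymerase, had 9.78, 38.4 and 34.2 CPM among non-CD24+CD90+ tumor cells and 43.2, 39.2 and 22.0 CPM in TICs, and the topoisomerase Top1mt had 16.1, 44.1 and 27.5 CPM and 29.9, 34.9 and 6.60 CPM. Both overlapped (adjusted p = 1 each from exactTest).

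Among 31 genes for processing and decay of mitochondrial RNA the median log2 fold change was 0.08. Slirp, which with Lrpprc stabilizes mt-mRNAs, had 32.1, 39.6 and 22.7 CPM among non-CD24+CD90+ tumor cells and 78.7, 70.3 and 71.8 CPM in TICs. All TICs were above, but it was not called (log2 fold change 1.22 ± 0.44, exactTest, adjusted p = 0.22). Tbrg4, a FASTK family protein also called FASTKD4, had 182, 198 and 162 CPM and 150, 108 and 36.9 CPM, with all TICs below (log2 fold change −0.87 ± 0.42, exactTest, adjusted p = 0.59). Ptcd3, a protein of the mitochondrial ribosome, had 5, 10 and 0 counts among non-CD24+CD90+ tumor cells and 13, 204 and 154 in TICs (adjusted p = 0.33 from exactTest). Hsd17b10, a subunit of mitochondrial RNase P, had 22.0, 21.4 and 57.9 CPM and 54.6, 48.8 and 40.6 CPM, which overlapped. Slirp, Ptcd3 and Atp5l were singled out after their values were seen. Of 10 tested regulators of mitochondrial biogenesis the median was 0.04, and the transcription factor Yy1 (137 to 200 CPM and 200 to 234 CPM) and the coactivator Pprc1 (63.3 to 116 and 100 to 109 CPM) were the most abundant per kilobase.

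The nuclear-encoded partners of the mt-mRNAs had medians close to 0 in most complexes. The median log2 fold change was −0.02 for 35 tested genes of complex I, −0.09 for 9 of complex III, 0.01 for 11 of complex IV, −0.28 for 16 of complex V and −0.16 for the 4 of complex II, which has no mitochondrially encoded subunit. The most abundant per kilobase included Cox7b and Cox4i1 of complex IV (621 to 757 CPM and 610 to 815 CPM for Cox7b, 748 to 926 CPM and 688 to 1005 CPM for Cox4i1) and Uqcr10 of complex III (254 to 342 CPM and 252 to 320 CPM). Ndufa2 of complex I had 253 to 314 CPM and 180 to 338 CPM, and Sdhd of complex II had 67.4 to 168 CPM and 119 to 168 CPM. In complex V, Atp5l had 34, 89 and 27 counts among non-CD24+CD90+ tumor cells and 0 in every TIC sample (adjusted p = 0.13 from exactTest). Its level in the former was only 4.96, 10.1 and 3.86 CPM, while Atp5o had 1005 to 1014 CPM and 586 to 1090 CPM. Sequence shared with other genes was searched for mt genes only, so the zeros of Atp5l are not read as its absence from TICs.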

How the data were processed

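RNA-seq of 6 pooled samples was used, 3 per group as the labels give them. Reads had been trimmed (Trimmomatic 0.32), aligned to GRCm38 (STAR 2.4.0), reduced to uniquely mapped reads (SAMtools 1.1) and summed per Ensembl gene (HTSeq) by the authors, who deposited raw counts. The annotation release, read length, counting mode and strand setting are not given in the sources used here. Symbols, coordinates and transcript sequences came from GENCODE M21, with symbols for 40340 of 41388 genes.

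Genes above 1 CPM in 3 or more libraries were normalized by TMM and compared with exactTest of edgeR 4.0.16 (R 4.3.3), with Benjamini-Hochberg adjustment over all 12192 genes. The study's methods name exactTest, this adjustment and a CPM threshold without its value. They do not name TMM. Shares were compared by exact permutation of the samples. Transcripts of mt genes were cut into 50-base windows and searched, on both strands, in all nuclear transcripts of GENCODE, and aligned to nuclear copies with Biopython 1.88. Scripts were tested on simulated data. Alternatives were DESeq2 1.42.0, edgeR's quasi-likelihood test, other scaling factors and filters, other denominators and leaving out each sample. The members, gene lists and tests were chosen with earlier results of these data known. All mt-mRNAs and mt-rRNAs are named, tRNAs where they passed the filter (the other 3 with counts are named because they are few), and of each list the called genes and the 2 most abundant per kilobase, of which a part is given. Replicates were numbered by accession. Exact permutation p-values rank the difference between groups among all relabelings of the pools. Those of exactTest set it against dispersions estimated from the pools and shared in part across genes.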

Additional observations from a re-analysis of the deposited data

How the results depend on the processing

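No paired analysis was possible because the labels give the groups no shared replicate numbers. The difference in the mt share of the library was 1.65 percentage points. It stayed positive in all alternatives tried, at 1.102 to 2.001 with 1 sample left out, but only 0.10 for mt-mRNAs over protein-coding counts and 0.06 for mt-mRNAs over all counts. The number of mt genes called was 0 in exactTest and became 2 with DESeq2 (mt-Rnr1 and mt-Nd6) and 2 with at least 10 counts in every sample (mt-Rnr2 and mt-Nd6). It ranged from 0 to 2 with 1 sample left out, with 2 without non-CD24+CD90+ tumor cells replicate 1 (mt-Rnr1 and mt-Rnr2), 1 without TIC replicate 1 (mt-Rnr2) and 1 without TIC replicate 3 (mt-Nd6). The cause was not tested. Factors from genes other than mt genes, RLE factors, library size alone, no filter and a threshold of 0.05 left it at 0. Of the nuclear-encoded mitochondrial genes, DESeq2 called 2 (Atp5l and Ptcd3), and leaving out 1 sample called 0 to 3, with 3 without TIC replicate 1 (Atp5f1, Ndufs8 and Ptcd3). Over all genes tested, 2.58% were called in each of these 2 fits. The difference in the complex I share of the mt-mRNA counts, TICs minus non-CD24+CD90+ tumor cells, was −0.57 percentage points and turned to 0.88 and 0.30 per kilobase of 50-base and 100-base windows not shared with nuclear transcripts, both added after the data were seen, and ranged from −2.10 to 0.89 with 1 sample left out. Log2 fold changes near 0 also turned sign with 1 sample left out, from −0.66 to 0.074 for mt-Nd1, −0.35 to 0.090 for mt-Co1 and −0.11 to 0.18 for mt-Nd5. For complex IV the difference ranged from −3.06 to −0.89 with 1 sample left out, the latter without non-CD24+CD90+ replicate 1. With 3 samples per group, the exact permutation test used for single shares cannot give a p below 0.1.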
